A study of Homo sapiens with 24 samples.

Results

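Cornified envelope and keratinocyte differentiation genes were followed through 24 RNA-seq libraries of 4 human cancer cell lines exposed to a cold atmospheric plasma. The group was given as a list of 41 gene symbols, and all 41 were found by Ensembl identifier among the 61533 genes of the deposited tables. By role they were 17 structural proteins, 3 transglutaminases, 9 proteases and inhibitors, 4 lipid enzymes and transporters, 6 transcription factors and 2 membrane channels. The cells had been plated in 6-well dishes and exposed to the plasma for 60 s or left untreated (0 s), and RNA was taken at 24 h. Piezo-CAP, the source used, is a partly ionised gas near room temperature that a piezoelectric device makes. Cal27 is a tongue squamous carcinoma line, Fadu a squamous line of the hypopharynx, A375 a melanoma line, and Hth83 is known by that name as an anaplastic thyroid line. The labels call all 4 wild type and head and neck cancer cells. Each line had 3 untreated and 3 plasma libraries, which makes 8 groups. Fadu was grown in MEM and the other lines in DMEM, so the line and its medium cannot be told apart. Each line is a single culture model of a tumour, grown as cell lines are, without the layered tissue in which cornification takes place.

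The cornified envelope is the protein shell that replaces the plasma membrane of a keratinocyte as it reaches the skin surface. Involucrin, periplakin, envoplakin and the small proline-rich proteins are laid down under the membrane, and transglutaminases join them through isopeptide bonds. Filaggrin and its relatives bundle keratin filaments below this shell, lipoxygenases and ceramide synthases build the lipid layer outside it, and kallikrein proteases held back by the inhibitor LEKTI later cut the desmosomes so that dead cells are shed. Transcription factors such as KLF4, ZNF750, GRHL3 and OVOL1 drive the programme, which squamous carcinomas keep to a varying degree.

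Total counts lay between 27.9 and 49.5 M (mega) per library, so that 3 counts, the smallest number treated here as detected, stood for 0.0606 to 0.108 counts per 1 M counts of a library. All CPM below are such values after scaling by TMM within a line. Nothing in the labels ties a group's 3 libraries to different cultures. The p-values therefore measure a spread between libraries that may be technical. TP63, the squamous lineage regulator, was at 0.000702 TPM (a level per transcript length, scaled to the same total in every library) in untreated A375. In the other untreated lines it was at 14.7 TPM (Cal27), 22.4 TPM (Fadu) and 20.01 TPM (Hth83). SOX10, a melanocyte lineage factor, was at 955.5 TPM in untreated A375 and at most 0.0494 TPM in the other untreated lines. The melanocyte markers S100B (119.1 TPM) and MITF (4.65 TPM) were also highest in untreated A375. PMEL and MLANA were not, at 0.873 and 0.68 TPM against 3.46 and 1.92 TPM in untreated Fadu. TYR (0.00692 TPM) and DCT (0.592 TPM) were low in untreated A375. Of 6 thyroid follicle markers PAX8 was at 27.8 TPM in untreated Hth83, against at most 4.02 TPM in the other untreated lines, while the other 5 were under 1 CPM there, thyroglobulin (TG) at 0.0409 CPM. The Hth83 libraries thus carried squamous markers and 1 of the thyroid markers, and the label's name is kept for them. The summed level of the thyroid markers in Hth83 was 128 to 129.3 CPM untreated and 160.7 to 179.5 CPM after plasma. The summed level of 10 squamous epithelium markers was 6551 to 6754 CPM in the untreated and 3207 to 3542 CPM in the plasma libraries of Fadu. Most of that difference was KRT5, a basal keratin, at 4085 CPM against 1281 CPM. TP63 (450.5 against 278.4 CPM), KRT14 (446 against 262 CPM), DSC3 (346 against 144 CPM) and TRIM29 (235 against 87.7 CPM) were lower after plasma too. So were DSG3 (177 against 96.9 CPM) and PKP1 (147 against 54.6 CPM). The rest were higher, S100A2 at 305 CPM against 626 CPM, SFN at 268 CPM against 310.5 CPM and KRT6A at 160 CPM against 195 CPM. In Cal27 the same sum was 1707 to 1741 CPM and 1054 to 1092 CPM, in Hth83 2934 to 3074 CPM and 2693 to 2880 CPM, and in A375 24.8 to 25.7 CPM and 33 to 35.8 CPM. Whether these differences in marker levels have a part in the results below was not tested. The pan-leukocyte marker PTPRC did not exceed 0.133 CPM in any group mean.

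The promoters of the 3 members that rose most and of the 3 that fell most in Fadu, among those with a promoter in the reference table, are shown because these genes moved most. Each is 250 bases before to 50 bases after a RefSeq start on GRCh38.p14, written 5′ to 3′ on the gene's own strand. Capitals mark TGANTCA, the site bound by AP-1, and TATAAA, the TATA box, each searched on both strands, and the motifs do not overlap one another. ALOXE3 has 3 listed starts, and the window shown is the one in which both AP-1 matches lie upstream of the start. The windows were chr17:3557763-3558062 for TRPV3, chr17:8118254-8118553 for ALOXE3, chr19:35528262-35528561 for SBSN, chr1:152325190-152325489 for FLG, chr1:152224144-152224443 for HRNR, all on the minus strand, and chr1:152908296-152908595 on the plus strand for IVL.
TRPV3 (rose): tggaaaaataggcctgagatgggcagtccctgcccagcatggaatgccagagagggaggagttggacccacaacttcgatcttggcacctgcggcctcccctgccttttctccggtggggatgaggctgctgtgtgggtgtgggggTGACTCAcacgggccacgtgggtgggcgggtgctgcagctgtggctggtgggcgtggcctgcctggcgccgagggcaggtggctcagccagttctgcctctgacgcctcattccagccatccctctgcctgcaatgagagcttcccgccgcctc
ALOXE3 (rose): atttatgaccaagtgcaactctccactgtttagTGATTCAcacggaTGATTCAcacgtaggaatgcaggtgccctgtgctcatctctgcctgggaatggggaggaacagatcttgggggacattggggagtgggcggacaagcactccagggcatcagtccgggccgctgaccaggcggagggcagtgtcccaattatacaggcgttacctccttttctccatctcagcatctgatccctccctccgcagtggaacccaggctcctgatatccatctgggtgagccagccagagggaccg
SBSN (rose): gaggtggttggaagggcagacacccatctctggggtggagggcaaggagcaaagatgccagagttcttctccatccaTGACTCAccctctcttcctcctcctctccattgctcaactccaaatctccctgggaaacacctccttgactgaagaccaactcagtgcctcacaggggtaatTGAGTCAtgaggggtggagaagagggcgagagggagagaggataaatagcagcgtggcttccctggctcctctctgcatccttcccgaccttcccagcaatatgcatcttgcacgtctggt
FLG (fell): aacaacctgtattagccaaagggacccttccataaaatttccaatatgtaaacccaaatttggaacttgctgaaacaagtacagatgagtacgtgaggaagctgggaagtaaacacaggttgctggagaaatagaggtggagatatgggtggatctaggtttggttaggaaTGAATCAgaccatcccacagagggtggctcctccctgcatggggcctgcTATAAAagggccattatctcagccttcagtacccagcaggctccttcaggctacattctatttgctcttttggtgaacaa
HRNR (fell): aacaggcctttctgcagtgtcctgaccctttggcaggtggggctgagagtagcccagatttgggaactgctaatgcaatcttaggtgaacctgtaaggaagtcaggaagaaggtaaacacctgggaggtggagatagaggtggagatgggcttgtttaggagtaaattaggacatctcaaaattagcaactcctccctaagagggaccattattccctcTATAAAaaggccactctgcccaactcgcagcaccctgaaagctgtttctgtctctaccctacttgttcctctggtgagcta
IVL (fell): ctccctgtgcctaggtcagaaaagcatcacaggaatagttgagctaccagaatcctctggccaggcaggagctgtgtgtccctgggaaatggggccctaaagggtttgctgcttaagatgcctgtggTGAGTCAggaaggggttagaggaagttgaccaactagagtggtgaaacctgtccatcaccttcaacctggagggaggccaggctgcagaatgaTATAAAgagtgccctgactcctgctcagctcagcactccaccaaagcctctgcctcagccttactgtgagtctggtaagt
FLG and HRNR, neighbours on chromosome 1, and IVL each held a TATA box, at positions -30, -31 and -30 from the start, and none of the 3 promoters of genes that rose held one. An AP-1 match stood in the windows of TRPV3, ALOXE3, SBSN, FLG and IVL, with 2 matches each in ALOXE3 and SBSN, so it was found among genes that rose and genes that fell. Over all members with a promoter, TATAAA was in any window of 6 of 12 that fell in Fadu and 0 of 4 that rose. For 1 of those 6, ABCA12, the only match was at position 6, after the start, and another window of the gene held none. It was also in 1 of 7 that did not pass and 3 of 8 not tested. TGANTCA was in 3 of 4 that rose, 3 of 12 that fell, 1 of 7 that did not pass and 3 of 8 not tested. The 31 members with a promoter in the table had 45 windows, of which 11 (24.4%) held TGANTCA and 10 (22.2%) held TATAAA, against 7.71% and 11.5% of all 35116 promoters. The 2 overlapping ALOXE3 windows hold the same TGANTCA matches and both count among the 11. A match is a run of letters and not a shown binding site. AACCNGTT, a grainyhead motif, was in 2 windows (4.44%), those of SPINK5 and TGM5, against 1.73% of all promoters.

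In untreated cells these genes were expressed most fully in Fadu. Of the 38 members with at least 3 counts summed over the untreated libraries of all 4 lines, 24 had their highest mean TPM in Fadu, 10 in Cal27, 4 in A375 and 0 in Hth83. The members took 0.1644% to 0.1675% of all counts in untreated Fadu, 0.04437% to 0.04485% in Cal27, 0.0135% to 0.01382% in Hth83 and 0.01131% to 0.01183% in A375. In TPM the leading members of untreated Fadu were the epithelial ETS factor ELF3 (595.5 ± 6.26, SD, n = 3), KLF4 (171 ± 13.5), the kallikreins KLK10 (163 ± 9.47) and KLK5 (115 ± 2.99), and the plakins PPL (114 ± 2.07) and EVPL (98.7 ± 4.26). KLF4 led in Cal27 (242.5 ± 6.21 TPM) and Hth83 (109 ± 4.05 TPM), and the small proline-rich gene SPRR2D led in A375 (111 ± 5.92 TPM). SPRR2D shares 19.3% of its 50-base stretches with SPRR2A, SPRR2B and SPRR2E, so its counts are uncertain. The terminal proteins were scarce: SPRR3, TGM3 and ASPRV1 had 0 counts in every library, CASP14, CDSN, CRCT1, DSC1, SPRR2E and TGM5 had group means under 1 TPM throughout, and IVL reached only 2.89 TPM, in untreated Fadu. A sum of fewer than 3 counts over the untreated libraries was found for 7 members in Cal27, 4 in Fadu, 16 in Hth83 and 17 in A375. LORICRIN, the gene of the most abundant envelope protein of skin and no member here, had 1 count in all, in untreated Fadu.

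**Figure D1:**
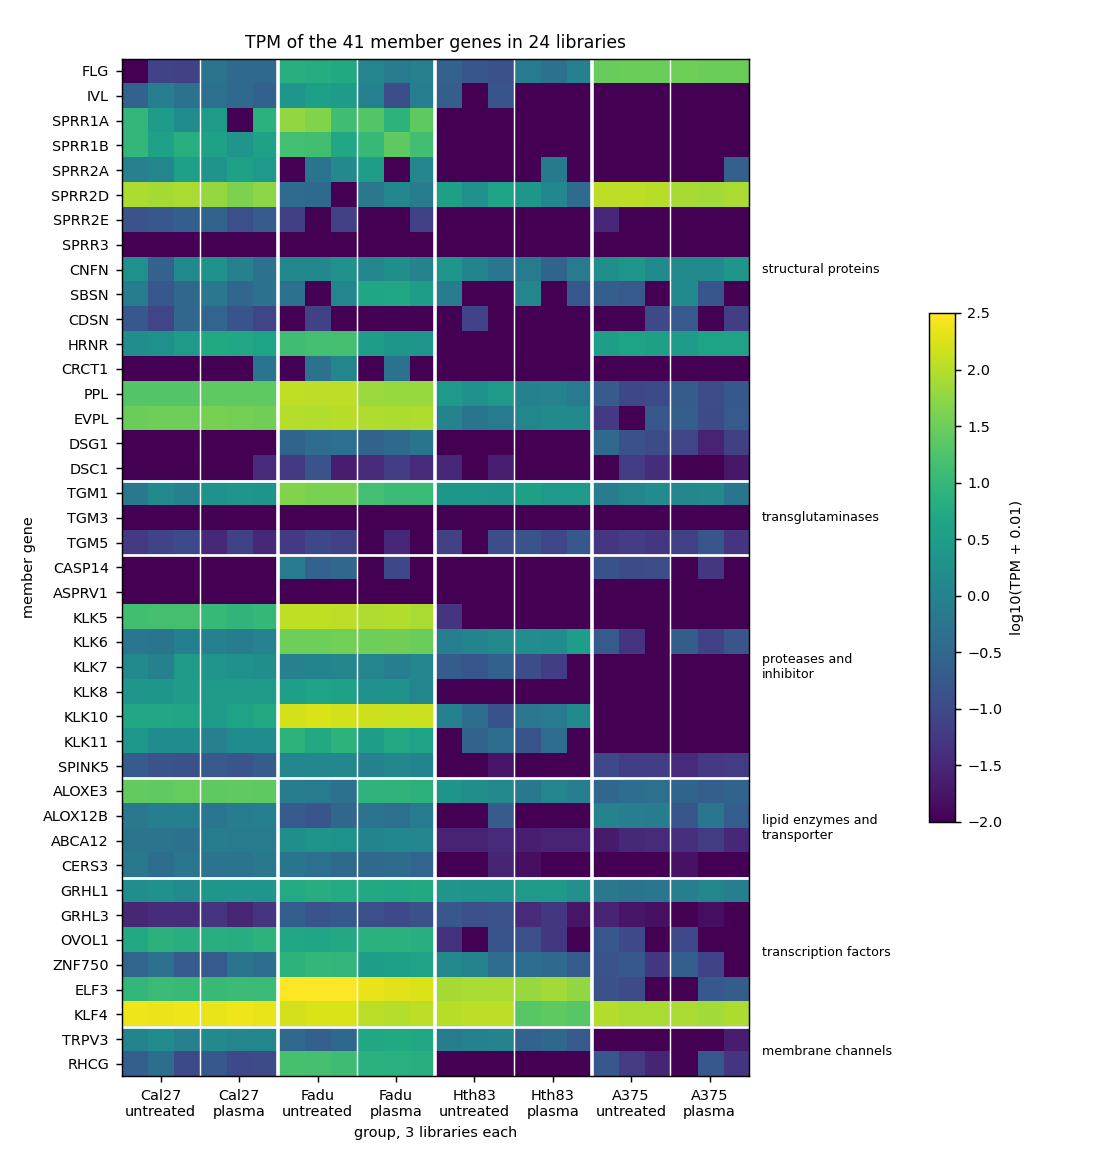
Deposited TPM of the 41 members in each of the 24 libraries, coloured as log10(TPM + 0.01), with rows grouped by role and columns by line and treatment. ELF3, KLF4, PPL, EVPL, KLK5 and KLK10 are bright in Fadu, while the structural proteins over a mean of 10 CPM are FLG and SPRR2D alone in A375 and PPL alone in untreated Hth83.

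Fadu was the line in which most members moved. Of the 30 members that passed the low-count filter, 18 fell, 5 rose and 7 did not pass edgeR's quasi-likelihood test at a Benjamini-Hochberg adjusted p under 0.05. The background was high, with 26.3% of all 19152 genes tested called higher and 27% called lower in the same comparison. On library size alone 6491 genes were called higher and 4005 lower, against 5031 and 5169, and the median over all genes was shifted to 0.11. The median log2 fold change over these 30 members was -0.39 and that over all genes tested 0.01. Members' share of counts went from 0.1644% to 0.1675% in the untreated to 0.1032% to 0.1098% in the plasma libraries, 2 ranges that did not overlap. By mean summed CPM, structural proteins went from 870.7 to 546.4 and transcription factors from 523.2 to 214, with PPL and ELF3 the most abundant of each. Transglutaminases went from 47.3 to 14.4 and proteases and inhibitor from 220.3 to 181. Lipid genes were at 37.45 against 36.39 and channels at 28.25 against 31.33. In bulk RNA, fewer cells with such transcripts and less of them per cell cannot be told apart. The low-count filter needs enough counts in the libraries of a single group only, so it favours a change toward that group. In Fadu SBSN and ALOX12B were tested only through their plasma libraries and IVL only through its untreated libraries. Outside Fadu, FLG in Cal27 and Hth83 was tested only through its plasma libraries. GRHL3 in Hth83 and ALOX12B in A375 were tested only through their untreated libraries. Not every such case is listed. Values below are CPM scaled by TMM within a line, given for replicates 1, 2 and 3, and log2 fold changes compare plasma with untreated (± SE, n = 3 libraries in each group).

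**Figure D2:**
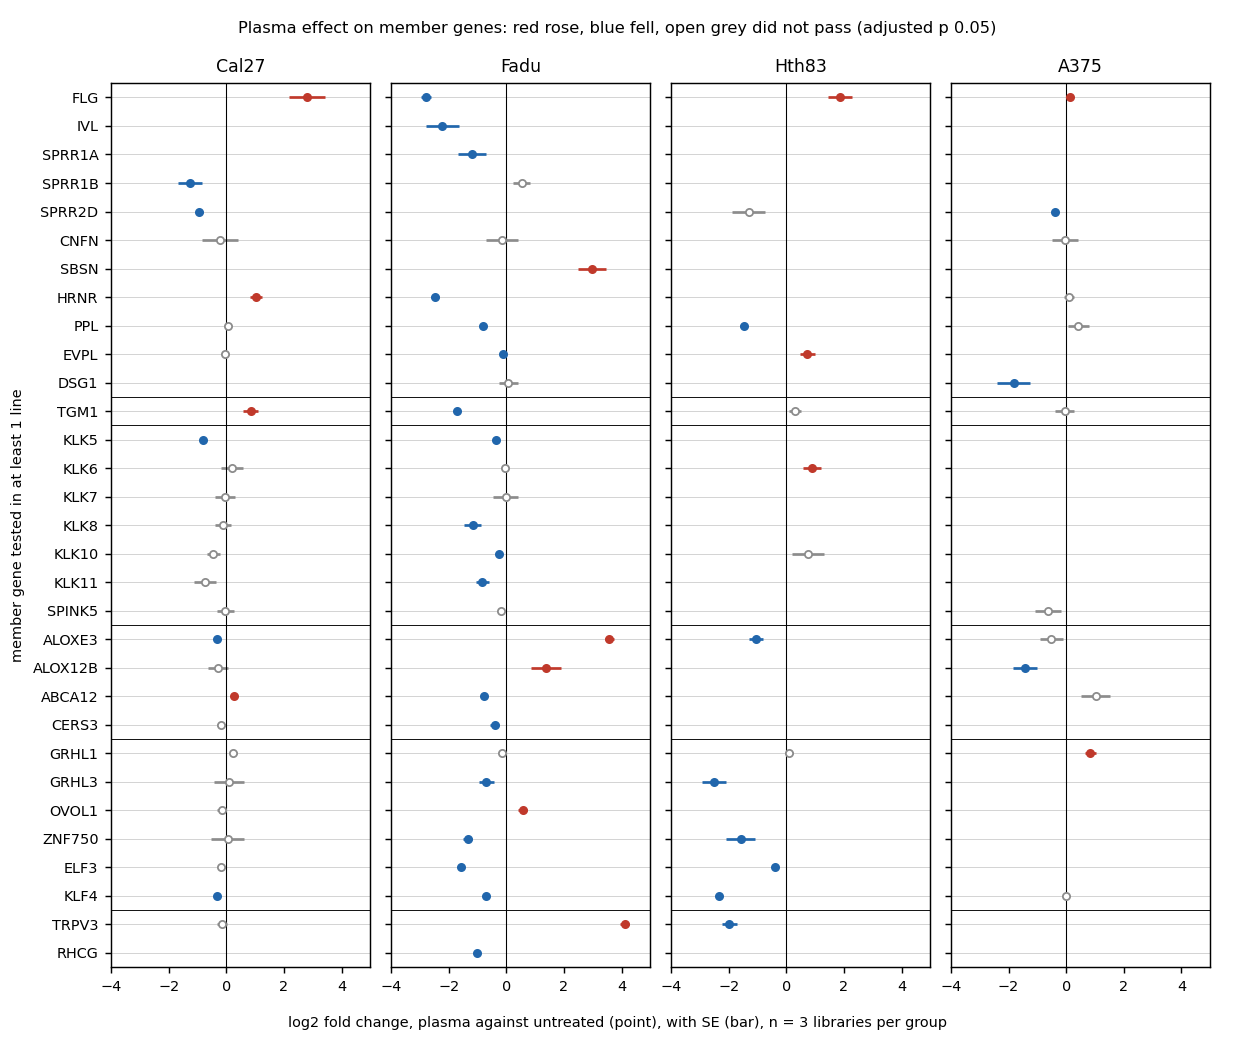
Log2 fold change of each tested member, plasma against untreated, in the 4 lines. Points are estimates of edgeR's model, bars are SE, and filled points passed at an adjusted p of 0.05 (red rose, blue fell), so that Fadu shows 18 falls and 5 rises and A375 3 falls and 2 rises.

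Structural proteins of Fadu fell in 6 of 10 tested cases and rose in 1. FLG, filaggrin (chr1:152302175-152325203, GRCh38, GENCODE 29, minus strand), had 12, 10.5 and 9.52 CPM in the untreated and 1.91, 1.23 and 1.54 CPM in the plasma libraries. Its neighbour HRNR, the filaggrin relative hornerin (chr1:152212082-152224193, minus strand), went from 12.2, 13.1 and 13.9 CPM to 2.98, 2.13 and 1.97 CPM. Every plasma library was far below every untreated library for both genes, with log2 fold changes of -2.79 ± 0.16 (edgeR adjusted p = 1.63e-28) and -2.48 ± 0.14 (4.93e-29). The antisense transcript FLG-AS1 overlaps 704 bases (5.52%) of FLG's exons and fell too (-2.39 ± 0.17), from 8.51 ± 0.606 to 1.63 ± 0.423 CPM (SD), and no source used here says whether counting used strand. FLG2, the third gene of this stretch, fell from 1.58 ± 0.434 to 0.174 ± 0.0563 CPM (-3.18 ± 0.44), but it passed the low-count filter only through its untreated libraries. PPL, periplakin (chr16:4882507-4960741, minus strand), the most abundant structural member of untreated Fadu by TPM, went from 685, 654 and 677 CPM to 391, 372 and 379 CPM (-0.82 ± 0.03, adjusted p = 3.94e-42). Its partner EVPL, envoplakin, was at 173, 161 and 176 CPM against 161, 147 and 160 CPM, groups that overlapped, with a fold change of -0.13 ± 0.04 (adjusted p = 0.00413) that lost its call on library size alone (-0.02, edgeR adjusted p = 0.663), on TPM, in a joint fit of all 4 lines and without untreated replicate 3 or plasma replicate 2 (adjusted p = 0.0712 and 0.0678). IVL, involucrin, fell at a low level, from 0.587, 0.857 and 0.742 CPM to 0.234, 0.0273 and 0.216 CPM (-2.22 ± 0.57), a call lost on log2(TPM + 0.1) with limma (adjusted p = 0.0511). SBSN, suprabasin, was the one structural member that rose, from 0.185, 0 and 0.439 CPM to 1.68, 1.86 and 1.2 CPM (2.97 ± 0.50, adjusted p = 1.55e-06). Its untreated level was near the detection floor, and it passed the low-count filter only through the plasma group in which it was high. The call on SPRR1A (-1.18 ± 0.48) rested on overlapping groups and was lost with DESeq2 and without untreated replicate 1 or 2 or plasma replicate 1 or 2. SPRR1B (0.53 ± 0.31), CNFN (-0.16 ± 0.55) and DSG1 (0.07 ± 0.32) did not pass.

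The cross-linking enzyme fell as well. TGM1, keratinocyte transglutaminase (chr14:24249114-24264432, minus strand), had 51.8, 44.8 and 44.8 CPM untreated and 16.3, 13.2 and 13.6 CPM after plasma (-1.72 ± 0.08, adjusted p = 7.67e-34). Every plasma library lay far below every untreated one, and neither TGM3 nor TGM5 had enough counts in Fadu to be tested.

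Among the member proteases that shed the outer layer and their inhibitor, 4 of 7 tested fell and none rose, by smaller amounts. KLK5, which starts the kallikrein cascade, went from 87.6, 84.9 and 82.4 CPM to 67.4, 68 and 62.5 CPM (-0.36 ± 0.05, adjusted p = 9.64e-11). KLK10 went from 90, 97 and 87.7 CPM to 81.2, 71.7 and 76.2 CPM (-0.26 ± 0.05, adjusted p = 9.94e-07). Neither gene's groups overlapped, yet both kept most of their level. KLK8 fell from 1.91 ± 0.142 to 0.845 ± 0.228 CPM (-1.17 ± 0.30), although 34.1% of its 50-base stretches are shared with an overlapping gene that had 0 counts. KLK11 fell from 3.21 ± 0.698 to 1.78 ± 0.42 CPM (-0.83 ± 0.22), a call lost on log2(TPM + 1) with limma (adjusted p = 0.0538). KLK6, the third abundant kallikrein, was at 27.4, 26.1 and 28.9 CPM against 27.1, 27.4 and 24.8 CPM (-0.06 ± 0.07, adjusted p = 0.55). KLK7, at 0.592 ± 0.0595 against 0.582 ± 0.102 CPM, did not pass (-0.03 ± 0.44, adjusted p = 0.966). SPINK5, which encodes LEKTI, the inhibitor of these proteases, was at 9.71, 10.5 and 10.5 CPM against 8.04, 9.97 and 8.96 CPM and did not pass either (-0.18 ± 0.11, adjusted p = 0.171). Of the nearby kallikreins outside the member list, KLK14 rose from 0.658 ± 0.169 to 2.32 ± 0.209 CPM (1.82 ± 0.29, edgeR adjusted p = 8.88e-08). KLK13 fell from 11.7 ± 0.321 to 7.3 ± 0.958 CPM (-0.68 ± 0.11).

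Lipid genes split. ALOXE3, the epidermal lipoxygenase that acts after ALOX12B on linoleate of acylceramides (chr17:8095900-8119047, minus strand), had 1.36, 1.3 and 0.844 CPM untreated and 14.5, 14.3 and 13.2 CPM after plasma. The lowest plasma library was thus well above the highest untreated library, and the fold change was 3.57 ± 0.16 (adjusted p = 4.44e-37). ALOX12B, the gene next to it that supplies the first step, rose by less and at a lower level, from 0.216, 0.166 and 0.337 CPM to 0.57, 0.492 and 0.801 CPM (1.37 ± 0.53, adjusted p = 0.0238), a call lost without untreated replicate 1 or 2 or plasma replicate 3. On the other side of ALOXE3, HES7 rose from 0.107 ± 0.0831 to 1.8 ± 0.601 CPM (4.09 ± 0.47). It started near the detection floor and passed the low-count filter only through its plasma libraries. PER1, further along, fell (-0.65 ± 0.06). ABCA12, which loads lipid into lamellar bodies, went the other way, from 27.8, 33.6 and 32.1 CPM to 16.9, 19.1 and 18.4 CPM (-0.78 ± 0.08, adjusted p = 4.67e-15). CERS3, a ceramide synthase for very long chains, fell in the test (-0.41 ± 0.17, adjusted p = 0.0356), but its groups overlapped, DESeq2 did not call it, and the call was lost without untreated replicate 1 or 2 or plasma replicate 3.

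The 2 membrane channels moved in opposite directions. TRPV3, a warmth-gated calcium channel of keratinocytes (chr17:3510502-3557995, minus strand), had the largest change of all members, from 1.21, 0.801 and 1.11 CPM to 16.8, 19 and 17.7 CPM (4.11 ± 0.15, adjusted p = 3.37e-43). TRPV1, its neighbour in the genome and a heat channel, rose far less, from 14 ± 0.698 to 17.1 ± 0.847 CPM (0.29 ± 0.09). RHCG, an ammonium transporter of squamous epithelium, fell from 29.7, 28.1 and 23.8 CPM to 14.5, 13.1 and 13 CPM (-1.01 ± 0.09, adjusted p = 8.48e-19).

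Of the 6 transcription factors, 4 fell in Fadu and 1 rose. ELF3 (chr1:202007945-202017188, plus strand), which activates SPRR and transglutaminase genes, went from 418, 409 and 419 CPM to 159, 135 and 126 CPM (-1.57 ± 0.10, adjusted p = 9.62e-05). Its antisense transcript ELF3-AS1 overlaps 9.23% of its exons and was at 15.5 CPM against 10.1 CPM. KLF4 (chr9:107484852-107490482, minus strand), needed for the skin barrier, went from 66.6, 75.6 and 75.7 CPM to 45.2, 40.6 and 48 CPM (-0.71 ± 0.06, adjusted p = 4.92e-18). ZNF750, which acts upstream of KLF4 in differentiation, went from 6.65, 7.54 and 7.42 CPM to 2.61, 2.79 and 3.17 CPM (-1.33 ± 0.16, adjusted p = 2.41e-12). In all 3 genes the untreated and plasma libraries lay apart. OVOL1, a repressor of proliferation in late progenitors, rose from 3.77, 3.32 and 3.91 CPM to 5.66, 5.65 and 5.02 CPM (0.57 ± 0.16, adjusted p = 0.00137). GRHL3, a grainyhead factor of the barrier, fell at a low level (-0.70 ± 0.26, adjusted p = 0.0195), a call lost without untreated replicate 1 or plasma replicate 2, and GRHL1 did not pass (-0.16 ± 0.08, adjusted p = 0.0912). The summed CPM of the 6 factors went from 518.8 to 529.5 in the untreated libraries to 203.3 to 235 in the plasma libraries, of which ELF3 made up the larger part.

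Cal27, the other squamous line, showed fewer changes, and in both directions. Of 26 tested members, 4 rose, 5 fell and 17 did not pass, with 21.9% of 17371 genes called higher and 23.2% called lower, shares close to those of the members. On TPM with limma 5552 genes were called higher and 1108 lower, and on library size alone 4884 and 2945, against 3801 and 4031. Their median log2 fold change was -0.13 against -3.9e-06 over all genes tested. HRNR rose from 1.66, 1.9 and 2.7 CPM to 4.96, 4.22 and 3.61 CPM (1.03 ± 0.20, adjusted p = 9.97e-05), with no overlap. FLG rose from a level near the detection floor, 0, 0.143 and 0.137 CPM, to 0.906, 0.572 and 0.572 CPM (2.80 ± 0.63, adjusted p = 0.000453). It passed the low-count filter only through the plasma group in which it was high. TGM1 rose from 0.849, 1.83 and 1.26 CPM to 2.27, 2.48 and 2.38 CPM (0.85 ± 0.26, adjusted p = 0.00809), a call lost without untreated replicate 1 (0.62, adjusted p = 0.0612). These 3 genes, filaggrin, hornerin and the transglutaminase, were among those that fell in Fadu.

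SPRR2D, KLK5, ALOXE3 and KLF4 fell in Cal27. SPRR2D went from 16.7, 15.4 and 15.9 CPM to 10.1, 6.51 and 8.64 CPM (-0.93 ± 0.12, adjusted p = 1.13e-07), and KLK5 from 11.7, 13.2 and 12.4 CPM to 7.7, 6.43 and 7.19 CPM (-0.81 ± 0.11, adjusted p = 4.7e-07). Both groups of plasma libraries lay wholly below the untreated ones. KLF4 moved by little, from 121, 117 and 121 CPM to 95.5, 100 and 93.9 CPM (-0.31 ± 0.04, adjusted p = 5.35e-07), and so did ALOXE3, from 52.2, 51.4 and 53.9 CPM to 42.9, 42.3 and 41.9 CPM (-0.31 ± 0.06, adjusted p = 2.64e-05). Both calls were lost on log2(TPM + 1) with limma, at -0.07 for each (adjusted p = 0.196 and 0.165), a scale on which the median over all genes of Cal27 was shifted to 0.20. SPRR1B fell (-1.26 ± 0.43) at 0.99 ± 0.434 CPM untreated, a call lost without untreated replicate 1 or plasma replicate 2, and ABCA12 just passed (0.26 ± 0.11, adjusted p = 0.0491) and lost its call whichever library was left out. PPL was at 135, 134 and 137 CPM against 143, 138 and 139 CPM (0.05 ± 0.04, adjusted p = 0.334), EVPL at 62.6, 63.5 and 63 CPM against 65.9, 60.6 and 56.7 CPM (-0.05 ± 0.06, adjusted p = 0.536) and TRPV3 at 4.43, 6.09 and 3.76 CPM against 4.81, 3.98 and 4.12 CPM (-0.14 ± 0.17, adjusted p = 0.539). None of these 3 passed, but PPL was called higher on library size alone (0.13, edgeR adjusted p = 0.00744) and on log2(TPM + 1) with limma (0.27, adjusted p = 0.00215), and EVPL on TPM. ELF3, at 8.76 ± 0.891 CPM against 7.78 ± 0.134 CPM, and OVOL1, at 6 ± 1.13 CPM against 5.35 ± 0.698 CPM, did not pass.

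In Hth83, where 14 members could be tested, 7 fell, 3 rose and 4 did not pass, against 25.9% of 17279 genes called higher and 24.2% called lower. On TPM with limma 4008 genes were called higher and 2563 lower, against 4477 and 4180. Over these 14 the median log2 fold change was -0.72, and over all genes tested 0.00346. KLF4 fell most firmly, from 43.5, 45.3 and 46.1 CPM to 8.55, 9.64 and 8.57 CPM (-2.33 ± 0.08, adjusted p = 4.33e-20). PPL went from 14.9, 11.7 and 14.9 CPM to 5.27, 5.46 and 4.12 CPM (-1.48 ± 0.13, adjusted p = 1.03e-10). Both genes were lower in every plasma library than in any untreated one. TRPV3 fell from 2.83, 3.21 and 3.54 CPM to 0.841, 1.01 and 0.572 CPM (-1.98 ± 0.26, adjusted p = 1.49e-07), the reverse of Fadu. GRHL3 fell from 1.94, 1.38 and 1.61 CPM to 0.28, 0.508 and 0.0858 CPM (-2.51 ± 0.41, adjusted p = 5.69e-06). ELF3, the most abundant member there after plasma, went from 53.6, 57.4 and 57.7 CPM to 41, 48.5 and 38.4 CPM (-0.40 ± 0.07, adjusted p = 2.64e-05), a call lost on log2(TPM + 1) with limma and no filter (adjusted p = 0.0889). ZNF750 fell at under 1.1 CPM (-1.59 ± 0.50), a call lost without untreated replicate 1 (-1.22, adjusted p = 0.104), and ALOXE3 fell from 2.9 ± 0.709 to 1.42 ± 0.373 CPM (-1.05 ± 0.25), a call lost on TPM. The 3 rises were all at low levels. FLG went from 0.431, 0.249 and 0.206 CPM to 1.09, 0.761 and 1.46 CPM (1.87 ± 0.41, adjusted p = 0.000334), a call lost on log2(TPM + 1) with limma and no filter (0.51, adjusted p = 0.0615). EVPL (0.72 ± 0.27) and KLK6 (0.90 ± 0.32) lost their calls when single libraries were left out, EVPL without untreated replicate 2 or 3 or plasma replicate 2 or 3 and KLK6 without untreated replicate 1 or 2 or plasma replicate 3. TGM1 was at 2.7, 2.6 and 2.37 CPM against 3.81, 2.89 and 2.8 CPM and did not pass (0.31 ± 0.20, adjusted p = 0.213). HRNR had 0 counts in all 6 libraries of this line.

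A375, the melanoma line, expressed few members, and 13 could be tested, of which 3 fell, 2 rose and 8 did not pass, against 25.7% of 19604 genes called higher and 24.8% called lower. On library size alone 3946 genes were called higher and 5961 lower, against 5044 and 4856. The median over them was -0.05 and over all genes tested -0.02. By TPM, FLG had its highest level here among the 4 lines, and its CPM were 47, 49.8 and 50.3 CPM untreated and 56, 52.4 and 53.4 CPM after plasma (0.14 ± 0.05, adjusted p = 0.0283). That small rise was lost on library size alone (0.07, edgeR adjusted p = 0.281), on TPM, with no low-count filter, in the joint fit and without untreated replicate 1, plasma replicate 1 or plasma replicate 3. FLG-AS1 stood at 29 ± 1.13 and 32.6 ± 2.27 CPM in the same libraries, beside FLG2 at 3.36 ± 0.53 and 3.42 ± 0.702 CPM and HRNR at 3.13 ± 0.308 and 3.3 ± 0.519 CPM. SPRR2D fell from 17.7, 17.4 and 16.2 CPM to 13.8, 12 and 13.7 CPM (-0.38 ± 0.09, adjusted p = 0.000538), the one call in A375 kept in every alternative. GRHL1, a grainyhead factor, rose from 2.14, 1.83 and 2.04 CPM to 3.23, 4.3 and 3.22 CPM (0.83 ± 0.19, adjusted p = 0.000472). ALOX12B fell from 1.1, 0.885 and 0.867 CPM to 0.172, 0.63 and 0.235 CPM (-1.45 ± 0.42, adjusted p = 0.00472), and DSG1, a desmosomal cadherin, fell at 0.543 ± 0.366 CPM untreated (-1.82 ± 0.57), a call lost without plasma replicate 2. On log2(TPM + 1) with limma and no filter the calls on GRHL1, ALOX12B and DSG1 were lost (adjusted p = 0.128, 0.0813 and 0.274). KLF4 was at 38.6, 33.6 and 33.2 CPM against 36.4, 31.1 and 37.6 CPM (-0.01 ± 0.07, adjusted p = 0.914).

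Whether plasma acted differently on a member in different lines was tested in a joint edgeR fit of all 24 libraries, with a quasi-likelihood F test of the line by plasma interaction. Of 33 members tested, 17 passed, against a background of 56.9% of 23642 genes. KLF4 passed (adjusted p = 3.55e-24) with log2 fold changes of -2.33 in Hth83, -0.71 in Fadu, -0.31 in Cal27 and -0.01 in A375. ALOXE3 passed (1.54e-24) with a rise in Fadu, falls in Cal27 and Hth83 and no call in A375. TRPV3 (4.74e-21) rose in Fadu, fell in Hth83 and was not called in Cal27. FLG (1.94e-20) fell in Fadu and rose in Cal27 and Hth83. Its rise of 0.14 in A375, from the fit of that line alone, was not called in the joint fit (0.11, edgeR adjusted p = 0.407). HRNR (8.21e-14), PPL (2.48e-13), TGM1 (1.43e-12) and ELF3 (3.77e-12) also passed. IVL, SBSN and RHCG, which had too few counts for a test within the other 3 lines, did not pass the interaction test, so their change is not shown to differ between lines.

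**Figure D3:**
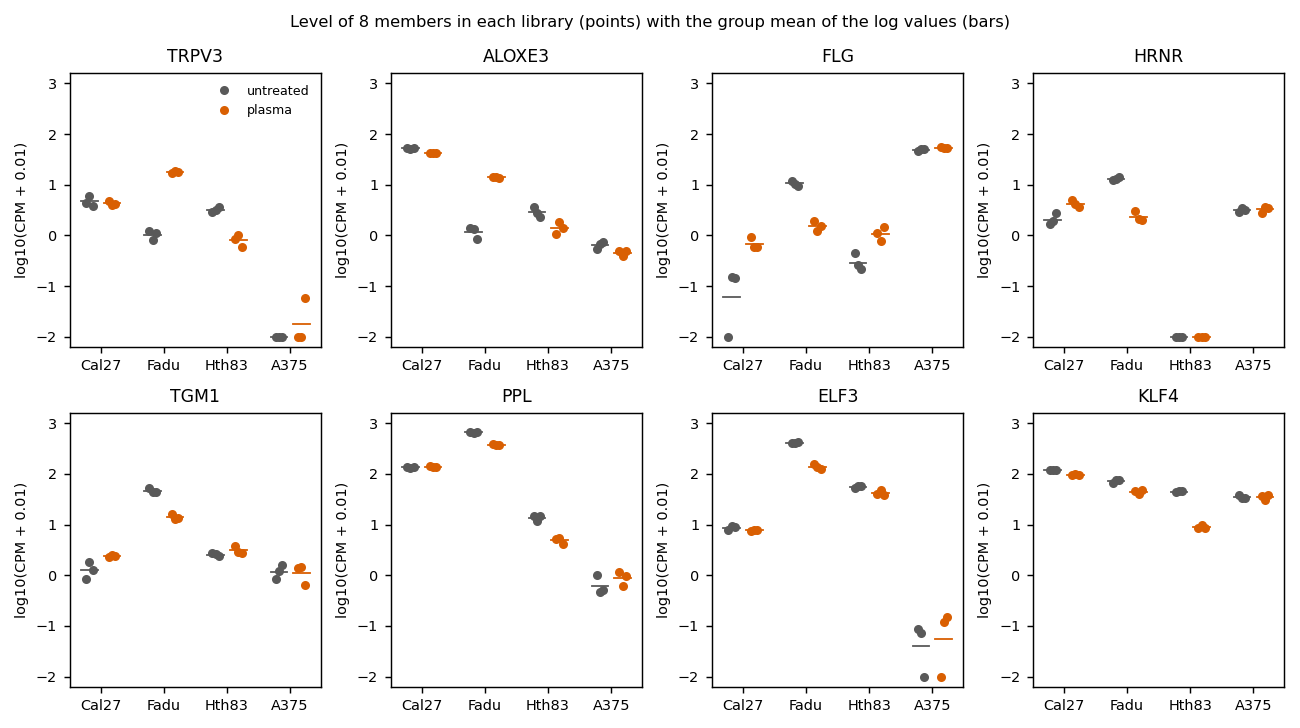
Level of 8 members in every library, as log10(CPM + 0.01) with CPM scaled by TMM within a line, untreated in grey and plasma in orange, with bars at the mean of the log values of 3 libraries. TRPV3 and ALOXE3 are higher after plasma in Fadu and lower in Hth83, FLG is lower in Fadu and higher in Cal27 and Hth83, and KLF4 drops furthest in Hth83.

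Other genes of keratinocyte differentiation were taken from 6 lists with 134 genes, none of them members. In Fadu 87 were tested, 42 fell and 21 rose, against 26.3% of all genes called higher and 27% called lower. Their median log2 fold change was -0.33, against 0.01 over all genes. Suprabasal keratins fell in 3 of 6 tested cases and rose in none: KRT13, the keratin of non-cornified mucosa, went from 134 to 25.6 CPM (-2.39 ± 0.08), and KRT80 from 205 to 136 CPM (-0.59 ± 0.04). Of 29 tested regulators of differentiation 19 fell and 4 rose, with the receptors NOTCH1, from 302 to 134 CPM (-1.18 ± 0.04), and NOTCH3, from 172 to 53.8 CPM (-1.68 ± 0.05), having the smallest adjusted p. Proteases and inhibitors outside the member list fell in 9 of 15 cases and rose in 3, among them the serpin SERPINB13, which fell from 81.3 to 20.5 CPM (-1.99 ± 0.06), and the lysosomal protease CTSD, which fell from 152 to 64.2 CPM (-1.25 ± 0.04). Basal keratinocyte genes went both ways, with 6 rising and 4 falling of 11, and the hemidesmosome plakin DST fell from 563 to 314 CPM (-0.84 ± 0.03). Barrier lipid genes rose in 5 and fell in 3 of 17 cases, ELOVL1, a fatty acid elongase, and SLC27A4, a fatty acid transporter, rising by 0.41 ± 0.04 and 0.49 ± 0.06, and these counts are near the shares over all genes. Other cornified envelope proteins fell in 4 and rose in 3 of 9 cases, and DMKN, dermokine, rose from 146 to 219 CPM (0.58 ± 0.04).

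In Cal27 the same lists had 37 falls and 7 rises of 79 tested, against 21.9% of all genes called higher and 23.2% called lower. That lean depended on the scaling, with 28 falls and 12 rises on library size alone and 17 falls and 16 rises of 67 on log2(TPM + 1) with limma. Proteases and inhibitors had 10 falls and no rise of 14, and 4 falls and no rise of 10 on that TPM scale. Basal genes had 7 falls and 2 rises of 11, and 5 falls and 4 rises on that TPM scale. Hth83 had 22 falls and 21 rises of 67, near the 24.2% lower and 25.9% higher over all genes there, with basal genes at 9 falls and 1 rise of 11 and proteases at 4 rises and no fall of 7. A375 had 19 falls and 21 rises of 59, against 24.8% lower and 25.7% higher over all genes, and its 3 tested suprabasal keratins, KRT9, KRT10 and KRT80, all rose, the call on KRT10 being lost on TPM. KRT80 fell by 0.61 ± 0.04 in Cal27 and by 0.59 ± 0.04 in Fadu, rose by 0.54 ± 0.07 in A375 and did not pass in Hth83. NOTCH1 rose in Cal27 (0.41 ± 0.04), Hth83 (0.47 ± 0.05) and A375 (0.51 ± 0.08), in contrast to its fall in Fadu.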

How the data were processed

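Libraries came from a SMARTER mRNA-Seq kit (per the labels' protocols) and a HiSeq3000 sequencer (per the series' design text). The submitters' processing notes name HISAT2 and the build GRCh38. No source used here gives the counting tool, its use of strand or the annotation release. The authors deposited raw counts per gene and TPM per gene for each line.

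Of 61533 identifiers, 61415 were named by a symbol table. The test was edgeR 4.0.16 in R 4.3.3 on the counts as deposited, 3 plasma against 3 untreated libraries per line: filterByExpr (minimum count 10, minimum total 15), TMM, the robust quasi-likelihood test and Benjamini-Hochberg adjustment over all genes tested, with a threshold of 0.05. A joint fit of 24 libraries gave the interaction test. CPM were scaled by TMM within a line, and levels between genes or lines were compared in the deposited TPM, apart from thresholds and summed levels in CPM. The scripts were tested on simulated data. That testing set no limit on false calls of the interaction test when the simulated spread differed by line. Replicate libraries differed by more than counting noise (chi-square over its degrees of freedom 2.94 to 8.54), so none was counted as a duplicate.

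Members and gene lists were chosen with earlier results of these data known. Values of every library are given for members at 10 CPM or more in a line that passed (at most 3 per role and line) and for the most abundant of each role. The other lists give at most 2 genes per line, and some genes of those lists are not reported here. All other genes shown, among them members under 10 CPM, neighbours and antisense transcripts, were chosen after their values were seen. Alternatives were DESeq2 1.42.0, RLE, library size only, no filter or a CPM of 1, a replicate block, limma 3.58.1 on log2(TPM + 1) or log2(TPM + 0.1), the joint fit and each library left out. Positions are from GENCODE 29, and promoters from RefSeq on GRCh38.p14.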

Additional observations from a re-analysis of the deposited data

Results flagged for a closer look

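The effect of plasma differed between the 4 lines for 17 of 33 members tested and for 68 of 92 genes of the other lists, by edgeR's quasi-likelihood F test of the interaction over all genes. Among members the adjusted p was 1.54e-24 for ALOXE3, 3.55e-24 for KLF4, 4.74e-21 for TRPV3, 1.94e-20 for FLG, 8.21e-14 for HRNR, 2.48e-13 for PPL, 1.43e-12 for TGM1, 3.77e-12 for ELF3 and 5e-07 for ABCA12. It was 0.000664 for GRHL1, 0.00112 for EVPL, 0.00147 for GRHL3, 0.00195 for ALOX12B, 0.00346 for SPRR2D, 0.00977 for KLK5, 0.0196 for TGM5 and 0.0284 for KLK6. TGM5 passed this test although its counts were too low for a test within any of the 4 lines.

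Among the genes of the other lists whose plasma effect is described here, the adjusted p was 3.24e-25 for CTSD, 6.22e-25 for NOTCH3, 3.5e-21 for DST, 1.18e-20 for NOTCH1, 5.49e-19 for SERPINB2, 1.67e-17 for DMKN, 5.64e-15 for ELOVL1, 1.58e-14 for DGAT2, 1.21e-12 for KRT5, 5.56e-12 for SCEL and 8.57e-11 for SLC27A4. It was 2.4e-08 for KRT10, 2.17e-06 for FLG2, 4.44e-06 for KRT80, 6.17e-06 for SERPINB3, 2.07e-05 for KLK14, 0.000346 for SERPINB4, 0.00209 for KRT9, 0.00906 for KRT13 and 0.00967 for LCE3D. KRT4, SERPINB13 and KLK13 did not pass (0.608, 0.093 and 0.244). Since 56.9% of all genes passed the interaction test, passing it does not set these genes apart.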

How the results depend on the processing

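Of 47 calls of a member in a line, 25 were kept in every alternative that gave a value: 16 of 23 in Fadu, 4 of 9 in Cal27, 4 of 10 in Hth83 and 1 of 5 in A375. No called member changed direction under any alternative run. EVPL in Cal27, not called at -0.05, rose by 0.18 on log2(TPM + 1) and by 0.19 on log2(TPM + 0.1) with limma (adjusted p = 0.0465 and 0.0468). Counts of members that moved by over 1.5 times were as follows. With limma on log2(TPM + 1), log2(TPM + 0.1) and log2(TPM + 1) without a filter, falls in Cal27 went from 5 to 2, 2 and 2, rises in Hth83 from 3 to 0, 0 and 0, falls in Hth83 from 7 to 3, 3 and 4, and rises in A375 from 2 to 0, 0 and 0. Falls in A375 went from 3 to 1 with the first and second of these and with a filter at a CPM of 1, and rises there to 1 on library size only and without a low-count filter. At an unadjusted p under 0.05, limma on log2(TPM + 1) had 1 of 9 tested members higher in Hth83 and 0 of 6 in A375, and without a filter 2 of 29 and 1 of 29. DESeq2, at an adjusted p, called 3 of 14 and 2 of 13 higher. The cause of these differences was not tested.

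With each library left out, rises numbered 2 to 4 in Cal27, 4 to 6 in Fadu, 1 to 3 in Hth83 and 1 to 3 in A375, and falls 4 to 6, 15 to 17, 6 to 8 and 2 to 3. The lowest counts of rises were those without untreated replicate 1 in Cal27, without untreated replicate 2 or plasma replicate 3 in Hth83, and without untreated replicate 1, plasma replicate 1 or plasma replicate 3 in A375. The interaction test passed 16 to 18 members. By CPM in place of TPM, 24 members were again highest in Fadu. Libraries of the same replicate number did not deviate together (12 pairs, correlations of -0.02257 to 0.03555). Whether libraries of the same number were set up together cannot be told from this, since a shared set-up need not leave a visible deviation. With the replicate block, rises and falls were 3 and 5 in Cal27, 5 and 17 in Fadu, 3 and 7 in Hth83 and 2 and 3 in A375, and 17 members passed the interaction test. Depth leaves members with under 3 counts in a group, 4 to 20 per group, without a usable level.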

Other observations

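Some genes of the other lists, chosen after their values were seen, moved more in Fadu than most members did. SERPINB2, a serpin that keratinocytes carry in the cornified envelope, went from 0.0927, 0.249 and 0.169 CPM untreated to 8.44, 10.6 and 10.1 CPM after plasma (5.79 ± 0.25, SE, n = 3 per group, edgeR adjusted p = 5.48e-38). The same gene fell in Cal27, from 111, 109 and 108 CPM to 78, 78.7 and 75.8 CPM (-0.49 ± 0.04), and did not pass in Hth83 (0.10 ± 0.06, edgeR adjusted p = 0.202), and it passed the interaction test. LCE3D, a late cornified envelope gene, went from 0, 0 and 0.0675 CPM to 0.871, 0.492 and 1.08 CPM in Fadu. In Fadu both SERPINB2 and LCE3D passed the low-count filter only through their plasma libraries. KRT4, a keratin of mucosal epithelium, fell there from 136, 137 and 129 CPM to 14.4, 4.64 and 3.39 CPM (-4.21 ± 0.47), with the plasma libraries spread more widely than the untreated ones. The squamous cell carcinoma antigens SERPINB3 and SERPINB4, which are close copies of each other, fell in Fadu (-3.11 ± 0.28 and -3.31 ± 0.44) and in Cal27 (-1.05 ± 0.13 and -1.09 ± 0.11).

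A lipid gene and an envelope gene were also chosen in Hth83 after their values were seen. DGAT2, which makes triglyceride, rose from 3.61, 2.38 and 3.57 CPM to 12.7, 11.4 and 12.4 CPM (1.94 ± 0.15). SCEL, sciellin, an envelope precursor, fell from 7.36, 9.21 and 13.1 CPM to 1.85, 2.44 and 1.29 CPM (-2.41 ± 0.23).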
